A study of Homo sapiens with 12 samples.

Results

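The genes described here are 10 of the 46350 named genes that each count file lists: the chemokines CXCL8, CXCL1, CXCL2, CXCL3, CCL2 and CCL20, the cytokines IL6, IL1A and IL1B, and NFKBIA, the inhibitor that holds NF-κB in the cytoplasm. They were chosen by symbol as textbook targets of NF-κB, because paeonol (PAE), a phenol found in peony root bark, is described as anti-inflammatory. All 10 symbols were found. In the GRCh38 coordinates of the files, CXCL8 (chr4:73740569-73743716), CXCL1 (chr4:73869393-73871308), CXCL3 (chr4:74036589-74038689) and CXCL2 (chr4:74097040-74099195) lie near each other on chromosome 4. IL1A (chr2:112773925-112784493) and IL1B (chr2:112829751-112836843) are neighbours on chromosome 2, where CCL20 (chr2:227813842-227817556) also lies. IL6 (chr7:22725889-22732002), NFKBIA (chr14:35401513-35404749) and CCL2 (chr17:34255285-34257203) stand alone. The question addressed was how the mRNA of these genes stood in the 4 groups of the study, each with 3 libraries. They were SKOV3 and SKOV3/DDP cells, each without treatment and with PAE. SKOV3 is an established epithelial ovarian cancer line that the labels call sensitive to cisplatin, and SKOV3/DDP is its paired line, labelled as resistant. Sensitivity and resistance therefore rest on a single line each. The labels give neither the dose nor the time of PAE. The series speaks of both biological and experimental triplicates without saying which the 3 libraries of a group are, so the p-values measure the spread between these libraries, which may be partly technical.

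NF-κB is a dimer of Rel proteins, such as RELA with the product of NFKB1, that waits in the cytoplasm bound to an inhibitor. When receptors for IL-1, TNF or bacterial products signal, the IKK kinases mark the inhibitor for destruction, and the dimer enters the nucleus and binds κB sites at its target genes. NFKBIA is itself such a target, so that its mRNA is made again while the pathway is active. The secreted targets recruit neutrophils (CXCL8, CXCL1, CXCL2 and CXCL3), monocytes (CCL2) and lymphocytes or dendritic cells (CCL20), or act as cytokines on many cells (IL6, IL1A and IL1B). Ovarian cancer cells are known to secrete IL-6 and CXCL8.

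The promoters are shown first because the genes were chosen as targets of NF-κB, which binds κB sites. RefSeq (GRCh38.p14) promoter sequences were at hand for 9 of the 10 genes, all but CCL2. In the 250 bases before the start, on both strands, the 9 letters GGAATTTCC were found in 5 of these 9 genes, CXCL8, CXCL1, CXCL2, CXCL3 and NFKBIA, against 0.428% of 27305 promoters. The κB consensus, which contains these letters in 4 of the 5 genes but does not match the site of CXCL8, was found in 6 of 9 genes against 9.57% of promoters. TGACTCA, the site that AP-1 binds, was found in 2 of 9, CXCL8 and IL1A, against 4.16%. IL1A and IL1B had neither GGAATTTCC nor the κB consensus in these bases. The genes were chosen as targets of NF-κB, so these shares do not test that choice. A match of this kind describes the letters and does not show binding. The start is that of the RefSeq promoter, which for IL6 and IL1B lies inside the gene interval of the files given above. The 150 bases before this start follow, 5′ to 3′ on the strand of the gene, with the letters matched by GGAATTTCC or the κB consensus on either strand in capitals. The promoters of CXCL1, CXCL2 and CXCL3 were 86.3% to 88.8% identical over this stretch, and CXCL8 stands beside them as the chemokine with its own sequence. IL6 and NFKBIA are the cytokine and the inhibitor that differed most clearly between the lines, and IL1A (the first of its 2 promoters in RefSeq) is the gene with the largest difference with PAE in SKOV3 and has no capitals.
CXCL8, chr4:73740419-73740568, + strand: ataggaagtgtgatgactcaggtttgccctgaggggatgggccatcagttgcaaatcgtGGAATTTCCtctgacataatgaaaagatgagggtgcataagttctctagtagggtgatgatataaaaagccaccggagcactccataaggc
CXCL1, chr4:73869243-73869392, + strand: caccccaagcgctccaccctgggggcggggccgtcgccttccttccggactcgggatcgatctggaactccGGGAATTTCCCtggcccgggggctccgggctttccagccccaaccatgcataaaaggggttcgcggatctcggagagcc
CXCL2, chr4:74099196-74099345, - strand: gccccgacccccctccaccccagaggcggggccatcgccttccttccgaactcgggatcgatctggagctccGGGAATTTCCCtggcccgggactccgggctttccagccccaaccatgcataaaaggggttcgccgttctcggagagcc
CXCL3, chr4:74038690-74038839, - strand: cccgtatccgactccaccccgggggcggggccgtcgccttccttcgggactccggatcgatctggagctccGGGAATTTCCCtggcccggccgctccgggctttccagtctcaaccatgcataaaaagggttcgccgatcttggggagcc
IL6, chr7:22727050-22727199, + strand: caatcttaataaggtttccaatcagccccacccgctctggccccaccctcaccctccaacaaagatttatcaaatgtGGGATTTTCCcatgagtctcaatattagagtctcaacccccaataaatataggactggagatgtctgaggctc
IL1A, chr2:112784494-112784643, - strand: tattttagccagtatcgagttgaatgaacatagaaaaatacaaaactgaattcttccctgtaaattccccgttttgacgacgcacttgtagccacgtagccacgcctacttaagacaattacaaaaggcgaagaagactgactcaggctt
NFKBIA, chr14:35404750-35404899, - strand: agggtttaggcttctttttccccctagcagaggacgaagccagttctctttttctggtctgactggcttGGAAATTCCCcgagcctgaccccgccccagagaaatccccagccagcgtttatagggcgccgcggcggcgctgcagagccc

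Some facts of the whole series touch these genes. Libraries held 14610008 to 18263479 counts, and values below are CPM, counts scaled to a common library total after TMM normalization (which balances libraries on their shared genes), unless another scale is named. Across 11210 genes, which are no replicates, a gene's deviation from its own mean went up with its GC content in untreated SKOV3 (Spearman's rho 0.745 to 0.773 in the 3 libraries) and down in all 9 other libraries (−0.622 to −0.393). TMM factors were 0.64 to 0.67 in these 3 libraries and 0.97 to 1.23 in the other 9. The shift falls on the whole untreated SKOV3 group. In every comparison that uses this group, the shift and the effect of PAE or of the line cannot be told apart. This holds for PAE in SKOV3, for the untreated lines and for the difference of the PAE effect. The members run from 33.4% GC (CXCL8) through 35.5% (CCL20) and 39.1% (IL1A) to 53.1% (NFKBIA). Values of members after removal of a fitted curve on GC content and length are therefore given wherever they change a call. The library SKOV3/DDP replicate 2 stood apart from its 2 companions for several members, as described with the effect of PAE in that line. It also stood apart over the genes as a whole. The mean chi-square per gene between libraries was 101 against replicate 1 and 92.6 against replicate 3, but 16.6 between replicates 1 and 3. Pairs within the other groups had 20.7 to 88.1. Of 12 leukocyte and endothelial markers, the defining PTPRC, MS4A1 and CDH5 had at most 2 counts in any group and CD3E at most 7. CD14 and CD68, known from monocytes and macrophages, were read well, CD14 at 62.9 to 72.5 CPM in untreated SKOV3 and 2.25 to 3.12 CPM in untreated SKOV3/DDP, and CD68 at 45.7 to 61.3 CPM and 83.3 to 104 CPM. PECAM1 was at 10.5 CPM or less in every library. The list summed to 120 to 131 CPM in untreated SKOV3, 45.3 to 75.9 CPM with PAE, 89.0 to 110 CPM in untreated SKOV3/DDP and 47.6 to 59.7 CPM with PAE, and its part in the members' values was not tested. Of 10 epithelial markers, KRT8 and KRT18 were abundant in all groups. KRT7 was at 3447 to 3749 CPM in untreated SKOV3 and at 0.519 to 2.4 CPM in untreated SKOV3/DDP, and EPCAM was at 0.426 to 1.95 CPM and 271 to 313 CPM, so the lines differed in these markers. In bulk RNA, fewer cells making a message and less message per cell cannot be told apart.

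Across the 10 genes, IL6, CXCL1 and IL1B were at or near 0 in SKOV3/DDP, CXCL8, CXCL2 and IL1A were found in both lines, and CCL2 was at the limit of detection everywhere. Levels of different genes were compared per transcript length, as TPM computed from the counts and the gene lengths in the files. In untreated SKOV3 the order by mean TPM was NFKBIA at 307 ± 21.2, IL6 at 22.9 ± 4.88, CXCL1 at 14.4 ± 3.40, CXCL3 at 5.63 ± 3.27, CXCL8 at 5.01 ± 2.94, CXCL2 at 4.24 ± 1.29, IL1B at 3.63 ± 2.88, IL1A at 1.06 ± 0.317 and CCL20 at 0.831 ± 0.634 (SD, n = 3). The values from CXCL3 to IL1B lay within each other's spread. With PAE, IL6 at 364 ± 225 TPM, NFKBIA at 357 ± 205 and CXCL8 at 197 ± 141 led in SKOV3, and these 3 overlapped. In untreated SKOV3/DDP, CXCL8 at 35.6 ± 43.6 TPM and NFKBIA at 30.5 ± 6.48 led, and the SD of CXCL8 exceeded its mean because of replicate 2. With PAE, CXCL8 led in SKOV3/DDP at 133 ± 44.3 TPM, above NFKBIA at 60.1 ± 2.49 and CXCL2 at 25.05 ± 12.28.

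**Figure D1:**
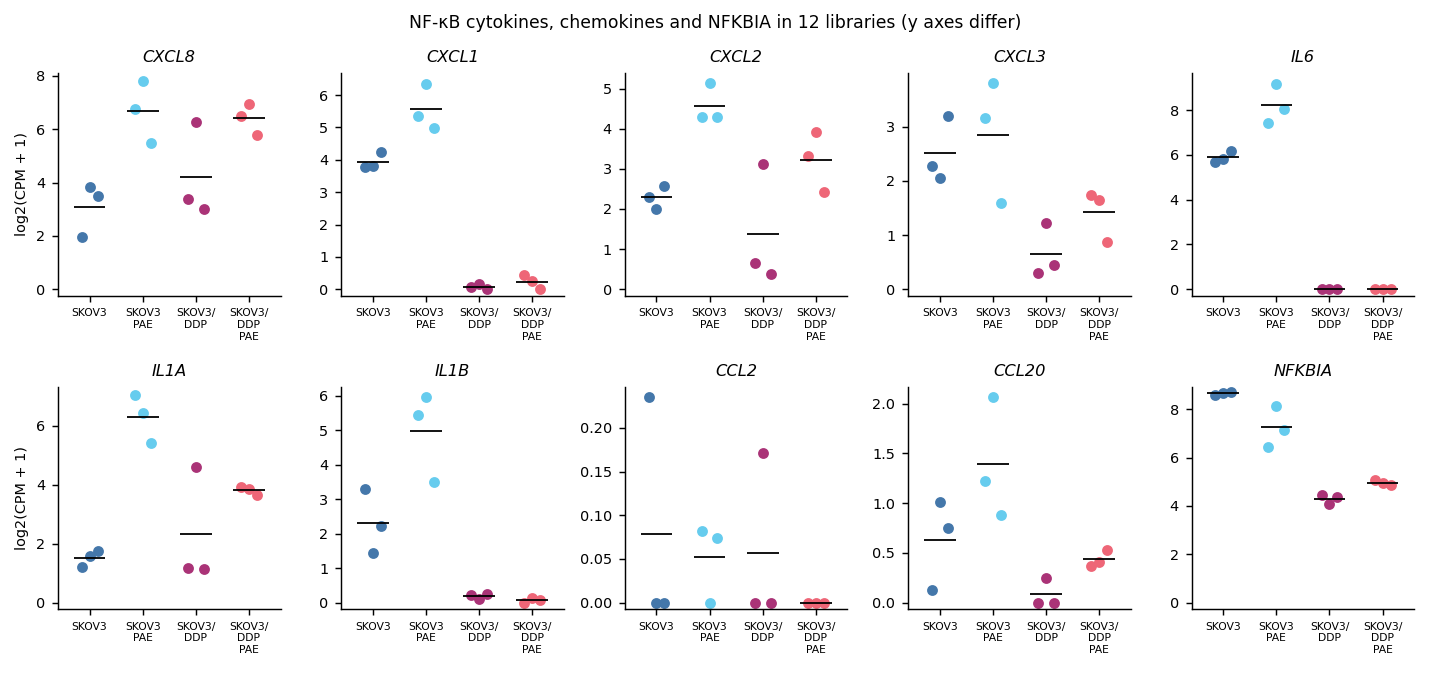
Level of each gene in the 12 libraries as log2(CPM + 1), with a point for each library, a line at the mean of 3 libraries and a separate y axis for each gene. IL6 had no count in any SKOV3/DDP library, and the middle point of untreated SKOV3/DDP, replicate 2, stood above its companions for CXCL8, CXCL2, CXCL3 and IL1A.

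In SKOV3 most secreted factors of the list were higher with PAE. Of 9 members that passed the filter on low counts, 7 had an adjusted p under 0.05 (quasi-likelihood test of edgeR, adjusted by Benjamini-Hochberg over 17133 genes). CXCL8, CXCL1, CXCL2, IL6, IL1A and IL1B were higher and NFKBIA was lower. In this comparison 75.3% of all genes tested were called, 42.6% as higher and 32.7% as lower, so a call in itself says little about these genes. The libraries of the 2 groups did not overlap for the same 7 members of 10, against 77.4% of all genes (43.5% higher and 33.8% lower). Scaling moved the centre of the comparison, since over all genes the log2 fold change had a median of 0.48 with TMM and of 1.36 with scaling to the library total alone (library size only), where 52.9% of genes were called as higher and 22.4% as lower. These scalings differ by a single factor for each library, so members could move little relative to the median between them. The log2 fold change minus the median was 5.02 with TMM and 5.01 by library size for IL1A, 3.33 and 3.34 for CXCL8, and −1.74 and −1.72 for NFKBIA. With the GC trend removed, which can move members relative to the median, it was 2.88 for IL1A, 1.34 for CXCL8 and −0.15 for NFKBIA. For CXCL3 it went up, from 0.12 with TMM to 0.93.

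CXCL8, the main neutrophil attractant of epithelial cells, was at 2.84, 13.3 and 10.3 CPM in the untreated SKOV3 libraries and at 106, 222 and 44.0 CPM with PAE. The lowest treated library was above the highest untreated library. The log2 fold change was 3.81 ± 0.86 (SE, adjusted p = 0.00091). With the GC trend removed it was 1.55 ± 0.84 with an adjusted p of 0.14, so the call was lost.

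The 3 GRO chemokines act on the same receptor as CXCL8. CXCL1 was at 12.6, 13.1 and 17.7 CPM untreated and at 39.9, 80.9 and 30.7 CPM with PAE (log2 fold change 1.80 ± 0.43, adjusted p = 0.0013). CXCL2 was at 3.9, 2.98 and 5.0 CPM untreated and at 18.7, 34.4 and 18.5 CPM with PAE (2.59 ± 0.79, adjusted p = 0.0080). CXCL3 was at 3.81, 3.15 and 8.14 CPM untreated and at 7.9, 13.0 and 2.0 CPM with PAE. CXCL3 groups overlapped, with the lowest of the 6 values in a treated library, and the difference did not pass the test (0.60 ± 0.64, adjusted p = 0.41). By library size only it did (1.47, adjusted p = 0.047). With the GC trend removed CXCL3 stood at 1.14 (adjusted p = 0.16), beside 1.26 for CXCL1 and 2.07 for CXCL2. Whether the 3 effects differ from each other was not tested. CXCL1 and CXCL2 share 60 of the 50-base windows of their transcripts, CXCL2 and CXCL3 share 48, and none of the 3 shares a window with CXCL8, so reads from those stretches could be counted on either gene of a pair.

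IL6, the cytokine that signals through IL6ST and STAT3, was at 50.5, 55.9 and 70.6 CPM in untreated SKOV3 and at 172, 582 and 264 CPM with PAE. All 3 treated libraries lay above the untreated ones, and the treated libraries differed among themselves more than the untreated ones did (SD of 215 against 10.4 CPM). The log2 fold change was 2.52 ± 0.40 (adjusted p = 0.00013), and 1.45 ± 0.43 with the GC trend removed (adjusted p = 0.019). IL6-AS1 overlaps IL6 on the opposite strand and had 51 counts in all 12 libraries together, and the strand of counting is not given in the sources used here.

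The 2 forms of interleukin-1, both of which act on IL1R1 and start NF-κB signalling themselves, were higher with PAE. IL1A, the form that is active as a precursor, was at 1.33, 1.96 and 2.37 CPM untreated and at 130, 85.5 and 41.8 CPM with PAE. It had the largest log2 fold change of the members, 5.50 ± 0.94 (adjusted p = 7.5e-05), and 3.09 ± 0.89 with the GC trend removed (adjusted p = 0.011). IL1B, the form that is cleaved before release, was at 8.87, 1.70 and 3.64 CPM untreated and at 42.4, 61.6 and 10.2 CPM with PAE (3.01 ± 0.61, adjusted p = 0.00039). With the GC trend removed IL1B stood at 2.19 ± 0.62 (adjusted p = 0.0094). Its lowest treated library, at 10.2 CPM, stood close to its highest untreated library, at 8.87 CPM.

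NFKBIA, which encodes IκBα, went the other way. It was at 387, 410 and 418 CPM in untreated SKOV3 and at 86.7, 280 and 141 CPM with PAE, with a log2 fold change of −1.26 ± 0.31 (adjusted p = 0.0019). The 3 treated libraries lay below the untreated ones, but this direction was lost with the GC trend removed, where the log2 fold change was 0.06 ± 0.29 (adjusted p = 0.89). By library size only, which moved the median of all genes up as given above, it was −0.37 (adjusted p = 0.31).

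The remaining members were near the limit of counting. CCL20, the ligand of CCR6, had 1, 12 and 8 counts in untreated SKOV3 and 23, 63 and 16 with PAE. In CPM the groups overlapped, at 0.0887 to 1.02 and 0.842 to 3.2 CPM, and the difference did not reach the threshold (log2 fold change 1.57 ± 0.76, adjusted p = 0.074). It was called by library size only (2.45, adjusted p = 0.0078) and stood at −0.12 with the GC trend removed (adjusted p = 0.92). CCL2 had 2 counts in untreated SKOV3, 2 in SKOV3 with PAE, 2 in untreated SKOV3/DDP and none in SKOV3/DDP with PAE. A total of 2 counts has an exact Poisson 95% interval of 0.242 to 7.22 counts, and CCL2 was left out of all tests.

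**Figure D2:**
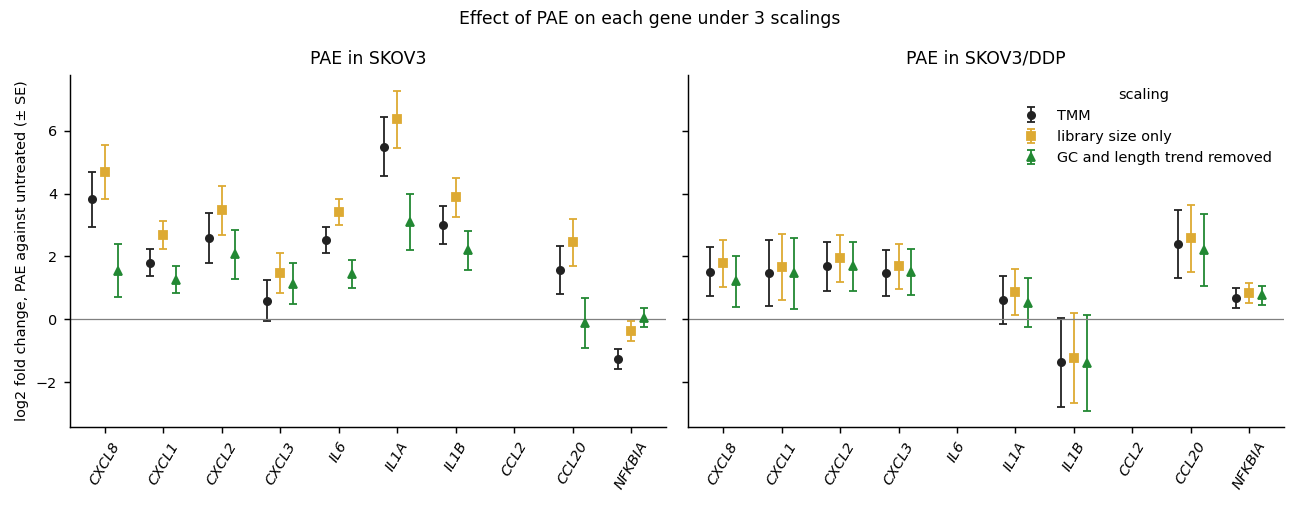
Log2 fold change of each gene with PAE against untreated cells (± SE, 3 libraries a group) in SKOV3 and in SKOV3/DDP, under TMM, under library size only and after removal of the GC and length trend. In SKOV3 the values lie nearer to 0 with the trend removed than under TMM for each gene but CXCL3, which lies farther from it (1.14 against 0.60), while in SKOV3/DDP the 3 scalings nearly coincide. IL6 has no value in SKOV3/DDP and CCL2 has none in either line.

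In SKOV3/DDP no member was called with PAE, of 8 that could be tested, while 26.4% of all genes tested were called (11.8% higher and 14.7% lower). By DESeq2 the count was also 0, and 3 members had an unadjusted p under 0.05 by edgeR, CXCL2 (0.047), CCL20 (0.044) and NFKBIA (0.048). The point estimates were above 0 for 7 of the 8. The libraries did not overlap for CCL20 and NFKBIA, which were higher with PAE, 2 of 10 members against 45.1% of all genes (21.4% higher and 23.7% lower). Whether members called in SKOV3 but not in SKOV3/DDP responded differently is given by the test of the difference further on. It passed for IL1A, IL1B and NFKBIA and did not pass for CXCL8, CXCL1 and CXCL2. For IL6 the difference has no estimate.

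The estimates in this line depended on SKOV3/DDP replicate 2. CXCL8 was at 9.34, 76.7 and 6.98 CPM in the untreated libraries and at 88.9, 123 and 54.4 CPM with PAE. Replicate 2 lay inside the treated range and the other 2 lay below it. CXCL8 had a log2 fold change of 1.52 ± 0.78 (adjusted p = 0.17) with all libraries and of 3.44 without replicate 2 (adjusted p = 0.0026). CXCL2 was at 0.577, 7.70 and 0.306 CPM untreated and at 8.98, 14.1 and 4.35 CPM with PAE, and went from 1.68 ± 0.78 (adjusted p = 0.13) to 4.34 (adjusted p = 0.00024). IL1A was at 1.27, 23.2 and 1.22 CPM untreated, with replicate 2 the highest of all 6 libraries, and at 14.1, 13.4 and 11.6 CPM with PAE. Its log2 fold change went from 0.61 ± 0.77 (adjusted p = 0.60) to 3.38 (adjusted p = 0.00019).

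Without this library 5 members were called, the others being CXCL3 (adjusted p = 0.040) and CCL20 (adjusted p = 0.033). Of all genes tested, 11.5% were called as higher and 12.9% as lower in that fit. CXCL3 had 4, 21 and 6 counts untreated and 48, 45 and 15 with PAE. CCL20 had 0, 3 and 0 counts untreated and 6, 7 and 8 with PAE, so the pooled ratio was 5.79 (95% counting interval 1.73 to 30.3). Leaving out any other library of these 2 groups gave 0 calls among the members. In those fits 6.47% to 9.94% of all genes were called as higher and 9.26% to 11.2% as lower.

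Of 12 AP-1 and C/EBP factors, 10 were at their highest of the 3 untreated SKOV3/DDP libraries in replicate 2 and none at its lowest. The share of all genes at their highest in that library was not computed, so how unusual this count is was not tested. ATF3 was at 420 CPM there against 49.3 and 51.3 in its companions, JUN at 459 against 108 and 85.8, FOS at 1031 against 345 and 277, and CEBPB at 111 against 36.3 and 42.8. FOSL2 at 166 against 145 and 146 and STAT3 at 68.8 against 75.3 and 57.2 CPM were close to their companions. Of 15 other secreted NF-κB targets with counts there, 7 were at their highest in replicate 2 and 6 at their lowest. LCN2, a secreted NF-κB and C/EBP target, was at 49.8 CPM against 2.54 and 1.65, and NFKBIZ, a nuclear IκB protein that NF-κB needs for some late targets, at 51.1 against 8.82 and 12.4. The cytokines CSF1 (59.8 against 140 and 163), LIF (68.0 against 126 and 143), IL33 (266 against 495 and 585) and CCL5 (1.39 against 8.997 and 145) were lower there. RELA was at 80.6 CPM against 76.5 and 81.0, and NFKBIA at 15.8 against 20.8 and 19.6, so neither was high there. With 0.5 CPM added to both sides, the ratio of this library to the mean of its companions was 13.6 for IL1A, which 0.111% of genes matched or exceeded, and 8.91 for CXCL8 (0.222%). ATF3, JUN, FOS, CEBPB, FOSL2, STAT3, LCN2, NFKBIZ, CSF1, LIF, IL33 and CCL5 in these libraries were singled out after their values were seen, and their part in the members' values was not tested.

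**Figure D3:**
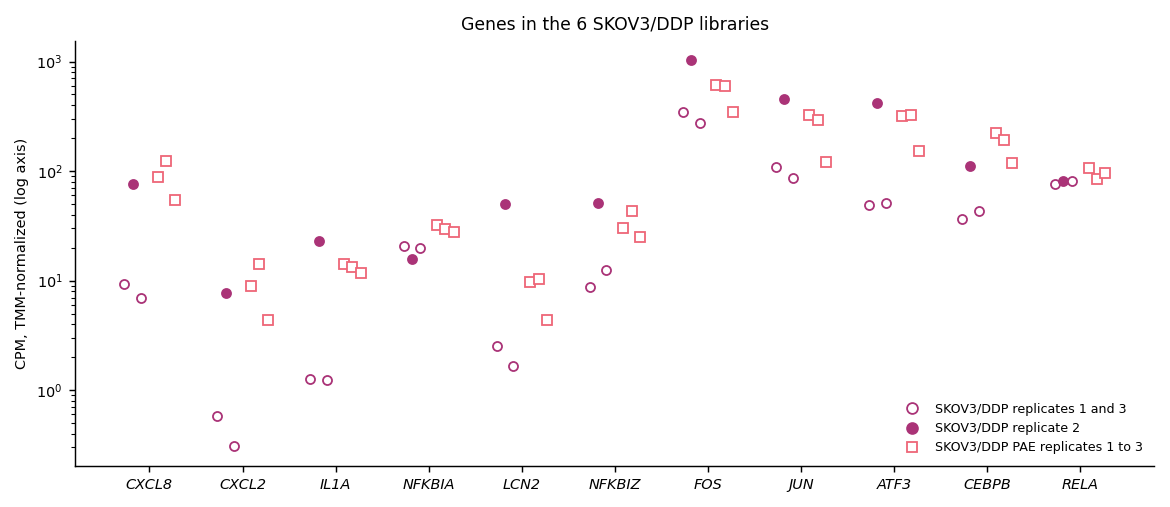
CPM on a log axis of 4 members and 7 other genes in the 3 untreated and 3 PAE-treated SKOV3/DDP libraries, with the filled circle for untreated replicate 2. For CXCL8, CXCL2 and IL1A the filled circle lies at or near the treated libraries and about a decade above the other untreated ones, for FOS, JUN and ATF3 it lies above every other library, and for NFKBIA and RELA it lies with its companions.

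NFKBIA was at 20.8, 15.8 and 19.6 CPM in untreated SKOV3/DDP and at 32.2, 29.8 and 28.0 CPM with PAE. The libraries did not overlap and the treated ones were higher, but the log2 fold change of 0.68 ± 0.31 did not pass the adjustment (adjusted p = 0.13). CXCL1 had 1, 2 and 0 counts untreated and 7, 4 and 0 with PAE, so the pooled ratio was 3.03 (95% counting interval 0.801 to 16.9, which includes 1). IL1B had 3, 1 and 3 counts untreated and 0, 2 and 1 with PAE, and its ratio of 0.355 had an interval of 0.0592 to 1.55. IL6 had no count in any of the 6 libraries. For a count of 0 a floor of 3 counts over a group was set. This floor is 0.0636 CPM of library totals in untreated SKOV3/DDP and 0.0595 CPM with PAE. The exact Poisson 95% interval of 0 counts reaches somewhat higher, to 3.69 counts, which is 0.0786 CPM untreated and 0.0733 CPM with PAE. These intervals and limits cover counting error only.

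The difference of the PAE effect between the lines, SKOV3/DDP minus SKOV3, passed the test for 3 of 8 members, while 62.9% of all genes tested passed it (25.5% higher and 37.4% lower). IL1A differed by −4.88 ± 1.17 (log2, adjusted p = 0.0020) and IL1B by −4.37 ± 1.61 (adjusted p = 0.027), and NFKBIA differed by 1.94 ± 0.44 (adjusted p = 0.0014). The median of all genes was −0.62, and the difference minus that median was −4.26 for IL1A, −3.75 for IL1B and 2.56 for NFKBIA. With the GC trend removed none of the 3 passed, with adjusted p of 0.095 for IL1A, 0.11 for IL1B and 0.19 for NFKBIA. IL1B lost its call without SKOV3/DDP replicate 1 (adjusted p = 0.077), without SKOV3/DDP replicate 3 (0.078), without SKOV3/DDP_PAE replicate 1 (0.060) and without SKOV3/DDP_PAE replicate 3 (0.053). IL1A differed by −2.12 without SKOV3/DDP replicate 2 (adjusted p = 0.0046). For CXCL8 the difference was −2.30 ± 1.11 (adjusted p = 0.083), and −0.38 without SKOV3/DDP replicate 2. It was −0.90 ± 1.08 for CXCL2, which became 1.75 without that library (adjusted p = 0.044). For CXCL3, CCL20 and CXCL1 it was 0.87 ± 0.97, 0.82 ± 1.26 and −0.32 ± 1.97. With such SEs, a failed test does not show that the lines responded alike.

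Between the untreated lines, the members fell into 2 sets. CXCL1, CXCL3, IL6, IL1B and NFKBIA were lower in SKOV3/DDP, 5 of the 8 members tested, while 84.7% of all genes were called, 46.1% as higher and 38.5% as lower. The libraries did not overlap for the same 5 members of 10, against 86.5% of all genes (47.9% higher and 38.6% lower). IL6 had 569, 656 and 833 counts in SKOV3 and none in SKOV3/DDP. With the floor of 3 counts in place of 0, IL6 was at least 976-fold lower in the resistant line on the TMM scale. CXCL1 had 142, 154 and 209 counts in SKOV3 and 1, 2 and 0 in SKOV3/DDP, and was 239-fold lower with a 95% counting interval of 81.5 to 1165. IL1B had 100, 20 and 43 counts against 3, 1 and 3, and was 33.1-fold lower with an interval of 15.7 to 83.7. NFKBIA was lower by more than the spread of either line, at 387 to 418 CPM against 15.8 to 20.8 CPM (log2 fold change −4.49 ± 0.18, adjusted p = 6.7e-07). With the GC trend removed NFKBIA stood at −2.97 (adjusted p = 3.0e-06). CXCL3 had a log2 fold change of −3.03 ± 0.67 (adjusted p = 0.0026).

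CXCL8, CXCL2 and IL1A did not pass between the untreated lines. CXCL8 stood at 1.74 ± 0.94 (log2, adjusted p = 0.11) and IL1A at 2.11 ± 1.10 (adjusted p = 0.10), but both turned below 0 without SKOV3/DDP replicate 2, to −0.18 and −0.65. By library size only, which moved the median of all genes from 0.41 to 1.16, both were called as higher (adjusted p = 0.030 and 0.033), and with the GC trend removed they stood at −0.22 and 0.02. CXCL2 stood at −0.53 ± 0.98 (adjusted p = 0.62), and without that library at −3.17 (adjusted p = 0.00044). CCL20, left out by the filter in this comparison, had 21 counts in SKOV3 and 3 in SKOV3/DDP, and was 9.96-fold lower there (95% counting interval 2.97 to 52.1). For each of these 4 genes the counts were low or 1 library decided the value.

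With PAE in both lines, where no untreated SKOV3 library takes part, 7 of 9 members were lower in SKOV3/DDP, against 54.5% of all genes called, 27.5% as higher and 27.1% as lower. The libraries did not overlap for 7 of 10 members, against 61.2% of all genes (31.4% higher and 29.8% lower). These comparisons share the PAE libraries with the effects of PAE given above. IL6 was at least 6934-fold lower, again with the floor of 3 counts in place of 0. CXCL1, with 2864 counts against 11, was 279-fold lower (95% counting interval 156 to 559), and IL1B, with 2136 counts against 3, was 762-fold lower (260 to 3699). NFKBIA stood at −2.50 ± 0.33 (log2, adjusted p = 1.4e-05), IL1A at −2.72 ± 0.79 (adjusted p = 0.0092), CCL20 at −2.32 ± 0.77 (adjusted p = 0.018) and CXCL3 at −2.10 ± 0.67 (adjusted p = 0.015). The calls of CCL20 and CXCL3 were less firm. Without SKOV3_PAE replicate 2 they stood at −1.61 (adjusted p = 0.13) and −1.48 (adjusted p = 0.097). CXCL8 stood at −0.49 ± 0.76 (adjusted p = 0.61), with 44.0 to 222 CPM in SKOV3 and 54.4 to 123 CPM in SKOV3/DDP, so its treated libraries overlapped. CXCL2 stood at −1.38 ± 0.74 (adjusted p = 0.13), although its libraries did not overlap (18.5 to 34.4 CPM against 4.35 to 14.1 CPM). The GC trend, once removed, changed no call in this comparison.

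The order of the 4 groups can be read gene by gene. IL6 was highest in SKOV3 with PAE, then in untreated SKOV3, and these 2 did not overlap, while both SKOV3/DDP groups were at 0. CXCL1 and IL1B had the same order, with both SKOV3/DDP groups at 0.343 CPM or less in every library and not separable from each other. NFKBIA was, in TMM-scaled CPM, highest in untreated SKOV3, then in SKOV3 with PAE, SKOV3/DDP with PAE and untreated SKOV3/DDP, with no overlap between neighbours. The SKOV3 groups overlapped in CPM of library totals (252 to 282 untreated and 102 to 341 with PAE) and in TPM (291 to 331 and 180 to 581). For CXCL8, untreated SKOV3 and untreated SKOV3/DDP overlapped, as did the 2 PAE groups. For IL1A, SKOV3 with PAE stood above all other libraries of the study, at 41.8 CPM or more.

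The rest of the pathway was looked at through 11 lists of known genes, each described by the genes called and by its median beside that of all genes, with no test of the list. Their counts are to be read against the shares of all genes called, 75.3% with PAE in SKOV3 (42.6% higher and 32.7% lower) and 26.4% in SKOV3/DDP (11.8% higher and 14.7% lower). Over the lists, cell type markers included, 88 of 121 genes tested were called in SKOV3 and 39 of 121 in SKOV3/DDP. Called genes of the lists went both ways in SKOV3 with PAE. Values of list genes are on the TMM scale and are not given with the GC trend removed. Under that removal 28.7% of all genes were called as higher and 21.9% as lower in SKOV3. The direction of NFKBIA was lost there, and whether the directions of list genes hold was not examined. Of the 5 NF-κB subunits, REL (log2 fold change 4.0) and NFKB1 (1.08) were higher and RELB (−3.45), NFKB2 (−2.33) and RELA (−2.03) were lower. NFKB1, the partner of RELA in the classical dimer, was at 50.5, 28.97 and 37.2 CPM untreated and at 74.3, 88.7 and 83.6 CPM with PAE. RELA, the subunit that activates transcription, was at 340, 247 and 316 CPM untreated and at 67.7, 95.1 and 58.4 CPM with PAE. The median of the list was −2.03 beside 0.48 for all genes. In SKOV3/DDP no subunit was called, and the median was 0.27 beside 0.

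Of 10 IκB proteins and IKK kinases, 3 were higher and 6 lower with PAE in SKOV3 (median −1.58). NFKBIZ (4.74) and CHUK, the kinase IKKα (4.0), were among the higher, and NFKBIE (−3.03) and IKBKG, the regulatory subunit of the kinase (−3.01), among the lower. In SKOV3/DDP, TBK1, a kinase related to the IKKs, was higher (1.17) and BCL3 (−0.999) and IKBKE (−1.66) were lower. Of 7 feedback inhibitors tested, 3 were higher and 4 lower in SKOV3. TNFAIP3, which encodes the deubiquitinase A20 and is a direct NF-κB target like NFKBIA, was at 20.9, 10.99 and 17.8 CPM untreated and at 81.2, 188 and 90.1 CPM with PAE (2.85 ± 0.33, adjusted p = 1.4e-06). CYLD, another deubiquitinase of the pathway, was higher in both lines (3.61 in SKOV3 and 0.94 in SKOV3/DDP), and TNIP1, a partner of A20, was lower in both (−2.06 and −0.76).

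Among 32 upstream receptors and adaptors tested, 16 were higher and 10 lower in SKOV3 with PAE, and 5 were higher and 4 lower in SKOV3/DDP. BIRC3, a ubiquitin ligase and NF-κB target, went from 1.28 to 2.57 CPM to a range of 42.7 to 81.8 CPM in SKOV3 (5.09 ± 0.39), while TRADD (−3.61) and IRAK1 (−3.16), adaptors of the TNF and IL-1 receptors, were lower. In SKOV3/DDP, IL1RAP, the second chain of the IL-1 receptor, was higher (1.53) and MYD88 (−0.78) and TLR3 (−1.80) were lower. IL1RN, the natural antagonist of IL-1, had 1 count in each SKOV3 group, 94 in untreated SKOV3/DDP and 30 in SKOV3/DDP with PAE, where it was lower (−1.93, adjusted p = 0.026). TLR4, the receptor for bacterial endotoxin, was at 2.47 to 2.66 CPM in untreated SKOV3 and 30.0 to 34.7 CPM with PAE, and had 2 counts in each SKOV3/DDP group.

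TNF, the classical inducer of NF-κB, had no count in any of the 12 libraries. Of 16 other secreted NF-κB targets tested, 5 were higher and 3 lower with PAE in SKOV3, and none was higher and 5 were lower in SKOV3/DDP. CXCL10, an interferon-induced chemokine, went from 0.0852 to 0.975 CPM to a range of 17.0 to 26.4 CPM in SKOV3 (5.70 ± 0.61), and had 11 counts and 2 counts in the SKOV3/DDP groups. IL33, an alarmin of the IL-1 family, was higher with PAE in SKOV3 (5.64) and lower in SKOV3/DDP (−3.75), where the untreated libraries held 495, 266 and 585 CPM. IL11, a cytokine that shares IL6ST with IL-6, was lower in both lines (−3.55 and −2.40). CCL5 was lower in SKOV3 (−3.46, adjusted p = 0.012), and its untreated libraries were far apart in both lines, with 167, 26.8 and 23.9 CPM in SKOV3 and 8.997, 1.39 and 145 CPM in SKOV3/DDP. C3 and VEGFC were at 289 to 377 and 20.03 to 36.98 CPM in untreated SKOV3 and had 15 and 0 counts in untreated SKOV3/DDP.

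Of 13 NF-κB targets that stay in or on the cell, 4 were higher and 5 lower with PAE in SKOV3. PTGS2, the inducible cyclooxygenase COX-2, went from 29.4 to 50.1 CPM to 1616, 2611 and 713 CPM (5.37 ± 0.48), and had 2 counts in untreated SKOV3/DDP and none with PAE. SERPINB2, a protease inhibitor, was also higher (4.70), while ICAM1, an adhesion molecule, and IRF1, a transcription factor, were lower (−1.37 and −1.43). ICAM1 was at 1342 to 1940 CPM in untreated SKOV3, 434 to 840 CPM with PAE, and 143 to 198 CPM in the 6 SKOV3/DDP libraries. In SKOV3/DDP, TNFRSF9 was higher (2.22) and TNFAIP2 (−2.52) and PLAU (−2.05) were lower. Between the untreated lines 10 of 12 tested genes of this list were lower in SKOV3/DDP and 2 were higher, against 38.5% and 46.1% of all genes, with a median of −3.21 beside 0.41 for all genes.

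The receptors through which the members act were thinly read. CXCR1, CXCR2 and ACKR1 had 0 to 13 counts in a group, CCR6 had 0 to 20 and CCR2 0 to 157, so 5 of the 9 receptors were tested. IL6ST, the shared signalling chain of the IL-6 family, was at 30.6, 15.2 and 25.2 CPM in untreated SKOV3 and at 426, 249 and 344 CPM with PAE (3.84 ± 0.32), and at 87.1 to 116 CPM and 108 to 182 CPM in the SKOV3/DDP groups (0.49 ± 0.29, adjusted p = 0.22). OSMR and LIFR, the other chains that pair with it, were at 56.0 to 186 and 4.01 to 11.4 CPM in untreated SKOV3 and had 12 and 1 counts in untreated SKOV3/DDP.

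Among 12 AP-1 and C/EBP factors, 3 were higher and 5 lower with PAE in SKOV3 and 2 were higher in SKOV3/DDP, CEBPB (1.48) and STAT3 (0.86). JUNB (−2.35) and CEBPA (−2.72) were lower in SKOV3. The treated SKOV3 libraries were far apart in this list. FOS was at 383, 343 and 25.2 CPM, FOSB at 312, 110 and 3.58 CPM and JUN at 448, 329 and 69.0 CPM, with replicate 3 low each time. In the same library 7 members were at their lowest of the treated ones, but not IL6 and NFKBIA. Among the 7 were CXCL8 at 44.0, IL1A at 41.8 and IL1B at 10.2 CPM. The share of all genes at their lowest in that library was not computed. FOS, FOSB and JUN were singled out after their values were seen, and their part in the members' values was not tested. ZFP36, which binds AU-rich elements and hastens decay of cytokine mRNA, was at 195, 155 and 18.4 CPM in these libraries and showed no difference from untreated SKOV3 beyond this spread (0.04 ± 0.59, adjusted p = 0.97). Its relatives ZFP36L1 (1.98) and ZFP36L2 (1.89) were higher with PAE in SKOV3, and ZFP36L1 was lower in SKOV3/DDP (−1.93).

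**Figure D4:**
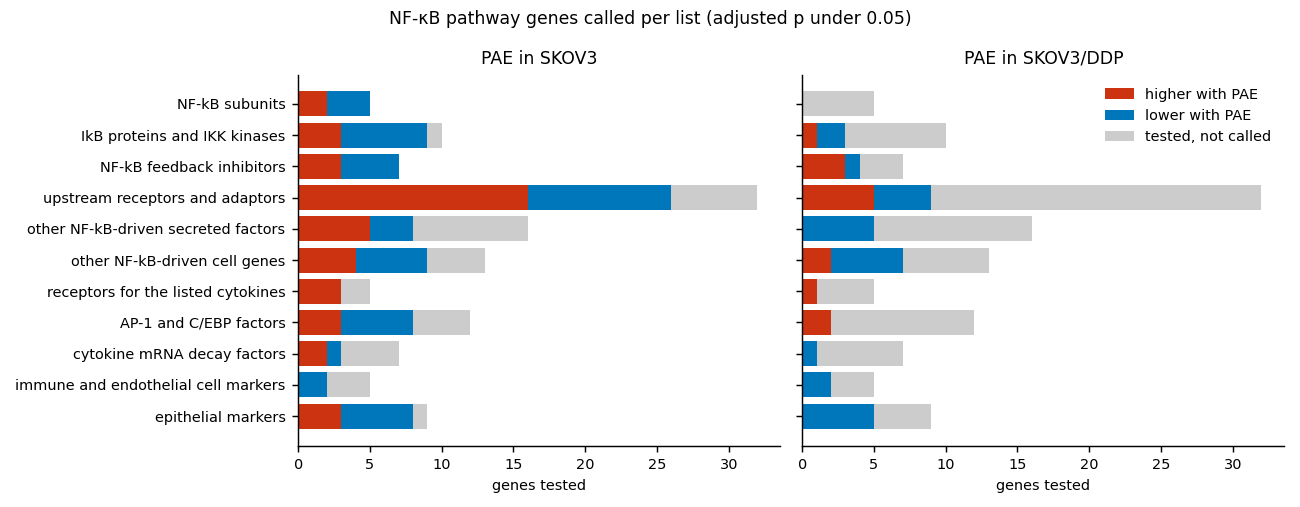
Number of genes in each of 11 lists that were higher, lower or not called with PAE (adjusted p under 0.05) in SKOV3 and in SKOV3/DDP, as bars over the genes tested. In SKOV3, where 75.3% of all genes were called, each list but the immune markers and cytokine receptors holds both directions, and in SKOV3/DDP, where 26.4% were called, most genes of most lists were not called.

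Genes with a pattern like that of each member were sought by Pearson correlation of log2 CPM over the 12 libraries, among 10828 protein-coding genes with a mean of at least 5 CPM. The correlations are a description, since 12 libraries in 4 groups share lines, treatment and base composition. IL6 was most like DKK1, a secreted Wnt inhibitor (r = 0.997), which was at 29.6 CPM in untreated SKOV3, 94.4 CPM with PAE and at most 0.0183 CPM in the SKOV3/DDP groups (means of 3), and PRTG (0.995). CXCL1 was most like PRTG (0.995) and THBD (0.993), IL1B most like UGT1A7 (0.981) and PTGS2 (0.978), and IL1A most like AKR1C1 (0.979) and HK2 (0.944). CXCL8 was most like SAT1 (0.951), the enzyme that acetylates polyamines, and PMAIP1 (0.931), a stress-induced BH3-only gene. For CXCL2 the nearest were VEGFA (0.893) and BMP2 (0.891), for CXCL3 DNMT3B (0.914) and ADM (0.913), for CCL20 SRR (0.876) and TPST1 (0.871), and for NFKBIA B3GNT9 (0.988) and ANKLE1 (0.985).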

How the data were processed

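Poly-A RNA libraries (NEBNext Ultra) of 12 samples were sequenced. As deposited by the authors, each file holds unnormalized read counts by gene with GRCh38 coordinates, and totals of 14610008 to 18263479 counts set the precision of each value. The submitters' processing notes name HISAT2 2.0.5, StringTie 1.3.3b, DESeq2 and edgeR without their roles, and the strand of counting is not given in the sources used here. Loci without a gene name (869) were left out.

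Counts were filtered (filterByExpr), TMM-normalized and compared by edgeR 4.0.16's quasi-likelihood test in R 4.3.3 with Benjamini-Hochberg adjustment at 0.05. All 12 libraries with 4 groups were fitted together, and the 6 untreated ones alone for the untreated lines. SE is the log2 fold change over the square root of F. IL6, without counts in SKOV3/DDP, has no PAE estimate there. GC content and length came from GENCODE 29 for 15090 of 17133 genes, and the trend was a spline with 5 degrees of freedom. The test was also run on simulated counts in which few genes were changed and no GC trend was put in. The data differ from this in both, so the calls given here were not tested by it.

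Members and lists were chosen with earlier results of these data known. From each list and comparison were named the 2 genes of each direction with the largest log2 fold change at an adjusted p under 0.05, a mean of 5 CPM or more in the higher group and libraries that did not overlap, and RELA, NFKB1, TNFAIP3, IL1RN, IL6ST, TNF, ICAM1 and ZFP36 always. Other genes were named after their values were seen. Alternatives were DESeq2 1.42.0, library size only, other filters, a replicate block, the GC trend, the study's criteria (unadjusted p under 0.05, absolute log2 fold change over 2), other sets of libraries and each library left out. No 2 libraries were duplicates.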

Additional observations from a re-analysis of the deposited data

Results flagged for a closer look

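The effect of PAE differed between the lines, by the test of the difference itself (SKOV3/DDP minus SKOV3, log2, edgeR's adjusted p under 0.05), for 3 of 8 members and for 70 of 121 genes tested in the lists. Values are given for the members and, of each list, for the genes that the naming rule takes in this comparison, the 2 largest in each direction with a mean of 5 CPM or more in the higher group, and for those always named that passed. Across all genes 62.9% differed, with a median of −0.62, and under removal of the GC trend none of the 3 members below passed. Values of the list genes with the trend removed are not given. No cause was tested.

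Among the members, the difference was −4.88 for IL1A, −4.37 for IL1B and 1.94 for NFKBIA. IL1B had 7 counts in untreated SKOV3/DDP and 3 with PAE, so the size of its value depends on how low counts are handled. Among the NF-κB subunits the difference was 2.30 for RELA, 3.52 for RELB, −3.65 for REL and 2.42 for NFKB2. For the inhibitors and kinases it was 3.67 for NFKBIB, −4.30 for NFKBIZ, −3.35 for CHUK and 3.45 for IKBKG, and for the feedback inhibitors −2.43 for TNFAIP3, 3.06 for TNIP2, −2.67 for CYLD and 2.47 for NLRC5. Upstream, TLR3 differed by −5.32, IRAK1 by 2.71, TRADD by 3.35 and BIRC3 by −4.49.

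Of the other targets, CXCL10 differed by −8.19, IL33 by −9.39, IL32 by 1.08, ICAM1 by 1.17, IRF1 by 2.04, SERPINB2 by −7.88 and TNFRSF9 by 1.58. PTGS2 differed by −8.05. In untreated SKOV3/DDP and SKOV3/DDP with PAE, PTGS2 had 2 and 0 counts, CXCL10 had 11 and 2, and SERPINB2 had 56 and 7, so the sizes of these 3 values depend on how low counts and zeros are handled. IL6R differed by 2.48 and IL6ST by −3.35. Among the AP-1 and C/EBP factors, JUNB differed by 3.14, FOS by −3.49, FOSB by −3.51 and CEBPB by 3.52, and among the factors of mRNA decay ZFP36L1 differed by −3.91, ZFP36L2 by −1.82 and KHSRP by 2.11. Of the cell type markers, PECAM1 differed by −2.03, EPCAM by −2.97 and CDH1 by −4.39.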

How the results depend on the processing

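With PAE in SKOV3, 7 members were called, 7 to 8 with a library left out, 8 by library size and 8 with no filter. The count was 5 with the GC trend removed, 5 by the study's criteria, and 3 of the 3 that had at least 10 counts in every library. Of all genes, 42.6% were called as higher and 32.7% as lower. These shares were 52.9% and 22.4% by library size, and 25.4% and 17.8% with no filter. With at least 10 counts in every library they were 44.9% and 41%. With a library left out they were 39.4% to 40.6% and 29.6% to 31.1%. With the GC trend removed they were 28.7% and 21.9%, so the share of all genes fell as well. In SKOV3/DDP no member was called, against 4 with no filter and 2 with the replicate block (CXCL8 and CXCL2). The count was 1 with the 2 groups alone, 1 by the study's criteria and 0 to 5 with a library left out. The shares of all genes called as higher and lower were 11.8% and 14.7%. They were 7.31% and 8.05% with no filter, 10% and 13.3% with the block, and 15.2% and 18.7% with the 2 groups alone. With a library left out they were 6.47% to 11.5% and 9.26% to 12.9%. Between the untreated lines 5 members were called, against 7 by library size (CXCL8 and IL1A as higher) and 8 with no filter. The count was 8 in the fit of all 12 libraries, 1 of 3 with at least 10 counts, and 5 to 7 with a library left out. The shares of all genes were 46.1% and 38.5%, against 53.9% and 30.6% by library size. They were 30.7% and 23.6% with no filter, and 45.8% and 36% in the fit of all 12 libraries. With at least 10 counts they were 44.4% and 39.8%. With a library left out they were 44.4% to 46.2% and 35.7% to 39%. With PAE in both lines 7 members were called, against 2 of 3 with at least 10 counts and 5 to 7 with a library left out. The shares of all genes were 27.5% and 27.1%, against 26.7% and 25.1% with at least 10 counts. With a library left out they were 23.3% to 24.9% and 24.2% to 25.5%. For the difference 3 members were called, against 0 with the GC trend removed and 4 by library size or no filter. The count was 2 by the study's criteria and 2 to 4 with a library left out. The shares of all genes were 25.5% and 37.4%, against 19.5% and 23.5% with the GC trend removed. They were 18% and 45.6% by library size, and 14% and 21.8% with no filter. With a library left out they were 23.3% to 25.2% and 34.1% to 35.9%. Shares of all genes under the study's criteria are not given. Library size moved the median of all genes from 0.48 to 1.36 with PAE in SKOV3, where it added CXCL3 and CCL20 and lost NFKBIA, and from 0.41 to 1.16 between the untreated lines. Stricter filters test fewer members, and otherwise the cause was not tested.

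Directions turned for some members (log2). With PAE in SKOV3, CXCL3 ranged from −0.023 without SKOV3_PAE replicate 2 to 1.13 without SKOV3 replicate 3, and CCL20 stood at −0.12 and NFKBIA at 0.056 with the GC trend removed. Between the untreated lines, CXCL8 stood at −0.22 with the GC trend removed and CXCL2 at 0.12 by library size. Leaving out SKOV3/DDP replicate 2 or 3 gave −0.18 or 2.23 for CXCL8, −3.17 or 0.041 for CXCL2, and −0.65 or 2.65 for IL1A. With PAE in both lines CXCL8 stood at 0.23 without SKOV3_PAE replicate 2 and −0.90 without SKOV3_PAE replicate 3. For the difference, CXCL1 stood at 0.048 by DESeq2, 0.20 with the GC trend removed, and −1.11 to 0.55 with a library left out, and CXCL2 at −1.40 to 1.75, the highest without SKOV3/DDP replicate 2. The cause was not tested.

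Libraries with the same number deviated together by correlations of −0.319 to 0.184, so the numbers were not taken as pairs. DESeq2 gave no adjusted p for IL1A between the untreated lines. Counts limit CCL2, CCL20, and IL6, CXCL1 and IL1B in SKOV3/DDP.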
